A study of Mus musculus with 2 samples.

Results

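The 6 microRNA (miRNA) genes described here, Mir149, Mir342, Mir708, Mir874, Mir346 and Mir326, each lie inside an intron of a protein-coding gene, namely Gpc1, Evl, Tenm4, Klhl3, Grid1 and Arrb1 in that order. They were taken by symbol from the 1973 miRNA genes of the deposited tables, and all 6 were found. They were selected by host gene and on their own-strand counts in these same libraries, so the levels are a description. The libraries came from small RNA (under 30 bases) of the neural tube of newborn mice of strain B6NCrl at postnatal day 0. The data hold 1 group of 2 libraries, 1 from a single neural tube of pup 2 and 1 from a single neural tube of pup 1 of the same dam. Sex was not recorded for either pup, and no treatment or genetic change is named in the labels. With 1 group, the comparisons possible were between the genes and between the 2 pups.

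An miRNA is cut from a hairpin in a longer transcript, and its seed, bases 2 to 8, pairs with target messenger RNAs and lowers their output. An intronic miRNA on the strand of its host can be cut from the host's own transcript, although some have promoters of their own. The hosts serve at the cell surface and in signalling. Gpc1 encodes glypican-1, a heparan sulfate proteoglycan, Evl an actin regulator of the Ena/VASP family that acts in growth cones, Tenm4 a teneurin adhesion protein, Grid1 the glutamate receptor delta-1 subunit, Arrb1 beta-arrestin 1, which binds activated G protein-coupled receptors, and Klhl3 a substrate adaptor of a cullin-3 ubiquitin ligase. Klhl3 is best known from the kidney, so the grouping under neurite and signalling genes rests on the other hosts. The host messenger RNAs were not measured.

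The mature sequences below (RefSeq, GRCm38.p6) show which seeds the 5 genes with a mature entry carry, with the seed in capitals. The counts are per precursor gene, so they do not tell which arm, 5p or 3p, was sequenced.
miR-149-5p: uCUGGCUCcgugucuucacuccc
miR-149-3p: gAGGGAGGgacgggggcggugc
miR-342-5p: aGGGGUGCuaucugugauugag
miR-342-3p: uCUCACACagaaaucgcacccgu
miR-708-5p: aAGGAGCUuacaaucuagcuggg
miR-708-3p: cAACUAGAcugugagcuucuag
miR-346-5p: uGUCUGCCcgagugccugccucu
miR-346-3p: aGGCAGGGgcugggccugcagc
miR-326-5p: gGGGGCAGggccuuugugaaggcg
miR-326-3p: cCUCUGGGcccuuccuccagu
No seed was shared among these 5 genes. Outside the set, the seed of miR-326-3p was also that of miR-330-5p, and the seed of miR-708-5p was also that of miR-28a-5p, whose sequences follow for comparison.
miR-330-5p: uCUCUGGGccugugucuuaggc
miR-28a-5p: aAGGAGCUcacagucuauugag
The precursors of the most abundant members, Mir149 and Mir342, are given with both mature arms in capitals to show that reads of either arm fall in the same counted gene, and that of Mir874 in lower case throughout.
Mir149 precursor: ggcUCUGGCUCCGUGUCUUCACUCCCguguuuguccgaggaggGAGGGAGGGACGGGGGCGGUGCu
Mir342 precursor: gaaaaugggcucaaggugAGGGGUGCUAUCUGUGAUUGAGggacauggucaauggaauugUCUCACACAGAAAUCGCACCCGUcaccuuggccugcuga
Mir874 precursor: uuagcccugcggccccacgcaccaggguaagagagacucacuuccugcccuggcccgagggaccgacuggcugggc

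The annotation placed all 6 precursors in an intron of the named host and on its strand, and no annotated transcript of a host had an exon over its precursor. Not all transcripts of a host spanned the precursor. Those that did were 1 of 5 for Gpc1, 5 of 7 for Evl and 7 of 12 for Tenm4. For Klhl3 they were 2 of 2, for Grid1 1 of 3 and for Arrb1 5 of 10. In mm10 coordinates, Mir149 (ENSMUSG00000065470.1) lies on the plus strand of chromosome 1 (92850378 to 92850443) in intron 1 of 8 of Gpc1. Mir342 (ENSMUSG00000065436.1) lies on the plus strand of chromosome 12 (108658620 to 108658718) in intron 3 of 13 of Evl. Mir708 (ENSMUSG00000076143.1) lies on the plus strand of chromosome 7 (96249424 to 96249532) in intron 1 of 32 of Tenm4. Introns are counted in the host's reading direction, in its principal transcript that spans the precursor. Mir874 (ENSMUSG00000077962.1) lies on the minus strand of chromosome 13 (58023125 to 58023200) in intron 8 of 14 of Klhl3. Mir346 (ENSMUSG00000065481.1) lies on the plus strand of chromosome 14 (34894609 to 34894706) in intron 2 of 15 of Grid1. Mir326 (ENSMUSG00000065571.1) lies on the plus strand of chromosome 7 (99552269 to 99552363) in intron 1 of 14 of Arrb1. The introns were long, between 10.9 kb (Mir874) and 143 kb (Mir708), and the nearest flanking exon was between 2.90 kb (Mir149) and 51.0 kb (Mir346) away.

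**Figure D1:**
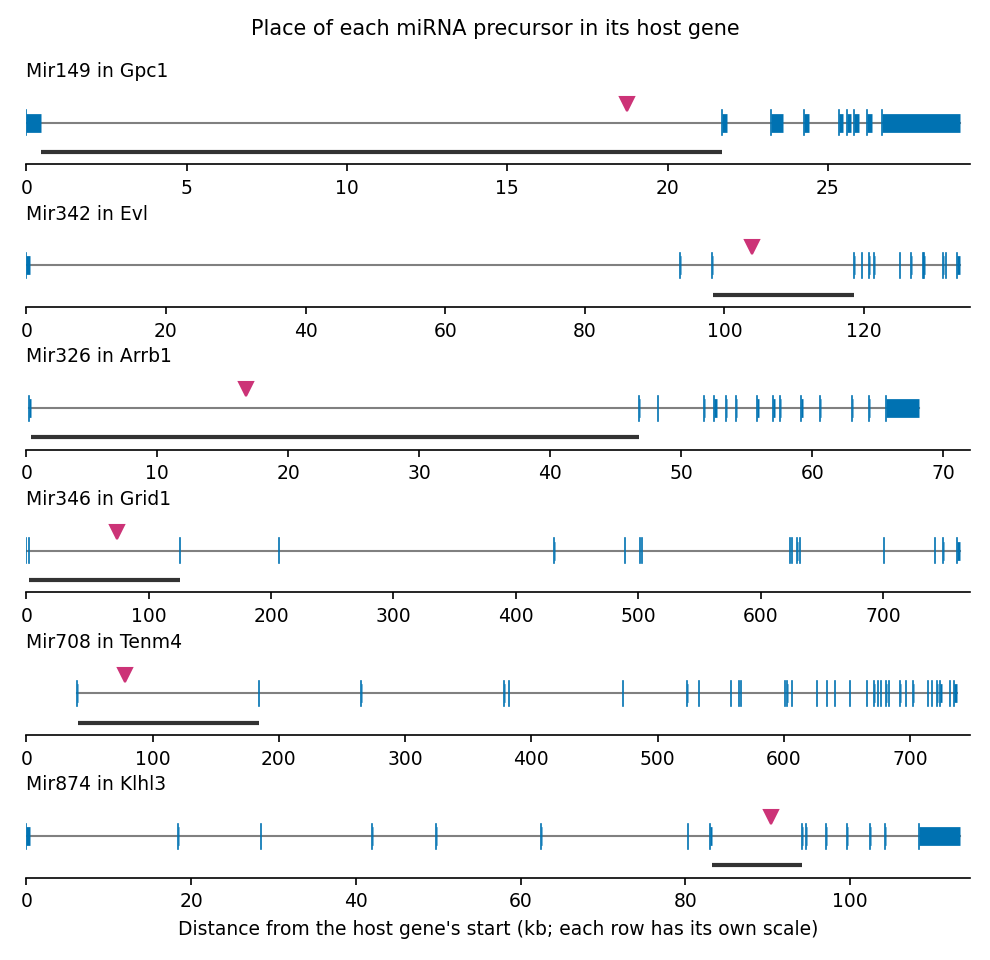
Each row is 1 host gene, drawn in its reading direction, with distance from the start of the gene in kb on the x axis and a scale of its own. Blue blocks are the exons of the transcript used for numbering, the black bar is the intron that holds the miRNA and the triangle is the precursor; Mir149 sits 18.3 kb after the first exon of Gpc1 and Mir708 37.4 kb after the first drawn exon of Tenm4.

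Counts on each gene's own strand were scaled to counts per 1000000 own-strand counts (CPM), from totals of 3660693 in pup 2 and 3216453 in pup 1. Reads that fitted several places (35.4% in pup 2 and 35.7% in pup 1) were counted to no gene. Of the marker lists, the neuronal one summed to 23940 CPM in pup 2, against 20823 CPM in pup 1 (6 of 9 measured genes detected), while Mir126a of endothelium stood at 26007 and 27838 CPM and mesenchymal markers summed to 11371 and 10663 CPM in pup 2 and pup 1. The 5 measured striated muscle markers summed to 105 and 70.6 CPM, mostly from Mir206, and 1 of them was detected. Markers with several gene copies, as in the muscle and neuronal lists, may lack reads that fitted several places. The sums of different lists therefore do not compare amounts of cell types. Of the 10 lists, 8 were higher in sum in pup 2 and 2, endothelium and liver, lower. Since the tissue was measured in bulk, fewer cells of a type and less RNA per cell cannot be told apart.

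The 6 genes spanned about 2 orders of magnitude and fell into a higher set, Mir149, Mir342 and Mir708, and a lower set, Mir874, Mir346 and Mir326. Together they had 72498 counts in pup 2 and 54386 in pup 1, or 1.98% (exact 95% binomial interval 1.97 to 1.99%) and 1.69% (1.68 to 1.71%) of the own-strand counts. Their summed level was 18357 CPM ± 2048 (SD, n = 2). The higher set held 97.0% of these counts in pup 2 and 96.7% in pup 1. Every member had at least 10 counts in each pup, as had 17.8% of all 1973 genes and 20.2% of the 654 genes placed in introns on the host's strand. Nothing is read from that difference, because the members were picked with these counts known.

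Mir149 of the glypican gene had 39807 counts in pup 2 and 30894 in pup 1, which is 10874 and 9605 CPM. It averaged 10240 CPM ± 897 (SD, n = 2) and ranked 15 among all 1973 miRNA genes and 6 among the 132 detected intronic genes. Mir342 of Evl had 19991 counts in pup 2 and 12664 in pup 1, which is 5461 and 3937 CPM. Its mean of 4699 CPM ± 1077 put it at rank 34, and its 2 libraries lay further apart, relative to the mean, than those of the other members of the higher set. Mir708 of Tenm4 had 10500 counts in pup 2 and 9007 in pup 1, which is 2868 and 2800 CPM. At 2834 CPM ± 48.1 and rank 49 it was the member whose libraries lay closest together, with an SD of 1.70% of the mean.

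The lower set began with Mir874 of Klhl3, which had 1328 counts in pup 2 and 1009 in pup 1, or 363 and 314 CPM. Its mean was 338 CPM ± 34.7 (SD, n = 2), at rank 145. Mir346 of Grid1 had 580 counts in pup 2 and 455 in pup 1, or 158 and 141 CPM, with a mean of 150 CPM ± 12.0 at rank 190. Mir326 of Arrb1 was the least abundant member and the only one with more counts in pup 1. It had 292 counts in pup 2 and 357 in pup 1, or 79.8 and 111 CPM, with a mean of 95.4 CPM ± 22.1 at rank 214. At this depth the exact 95% intervals reached 0.978% to either side for Mir149 and 11.6% for Mir326, both in pup 2. They cover counting error only and take each read as independent. No molecular identifiers are stated, so reads copied from the same molecule could make these intervals too narrow.

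**Figure D2:**
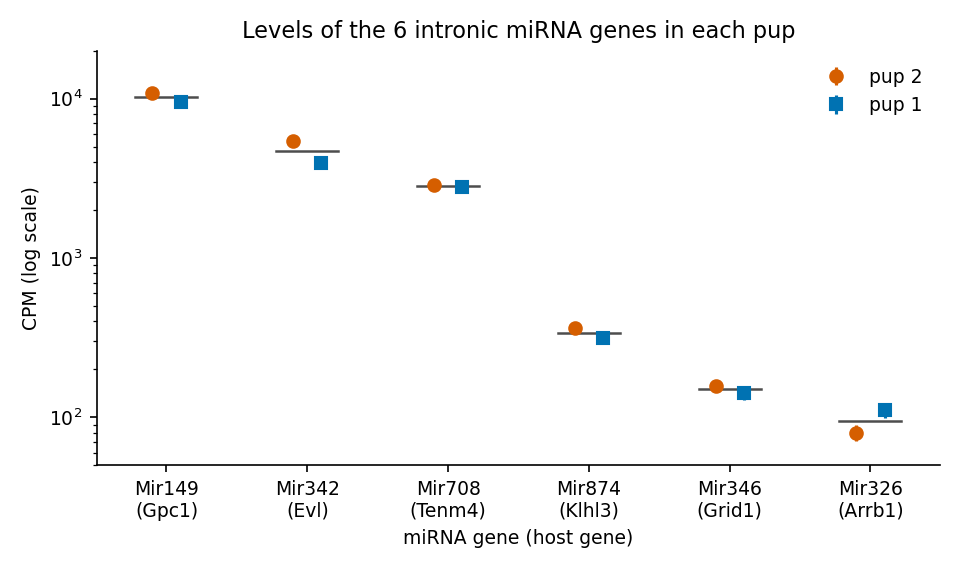
Level of each gene in CPM on a log axis, with pup 2 as circles, pup 1 as squares, the mean of both as a line and exact 95% intervals for counting error, mostly smaller than the symbols. Mir149 is highest at 10240 CPM, Mir326 lowest at 95.4 CPM, and only Mir326 has its circle below its square.

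In the order of levels, each gene differed from the next by more than the spread between the pups, taken as the 95% limit of a normal spread whose SD of log2(CPM + 1) was pooled over genes of like abundance. Mir149 lay 2.18-fold above Mir342 in mean CPM, and Mir342 1.66-fold above Mir708. The widest step came next, with Mir708 8.38-fold above Mir874. Mir874 lay 2.26-fold above Mir346, and Mir346 1.57-fold above Mir326. All 5 steps exceeded the limit, also when CPM was divided by precursor length. The order was taken from these same levels, so the steps are a description and not a test. The pups share any bias of ligation or base composition between genes, which this spread does not hold.

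**Figure D3:**
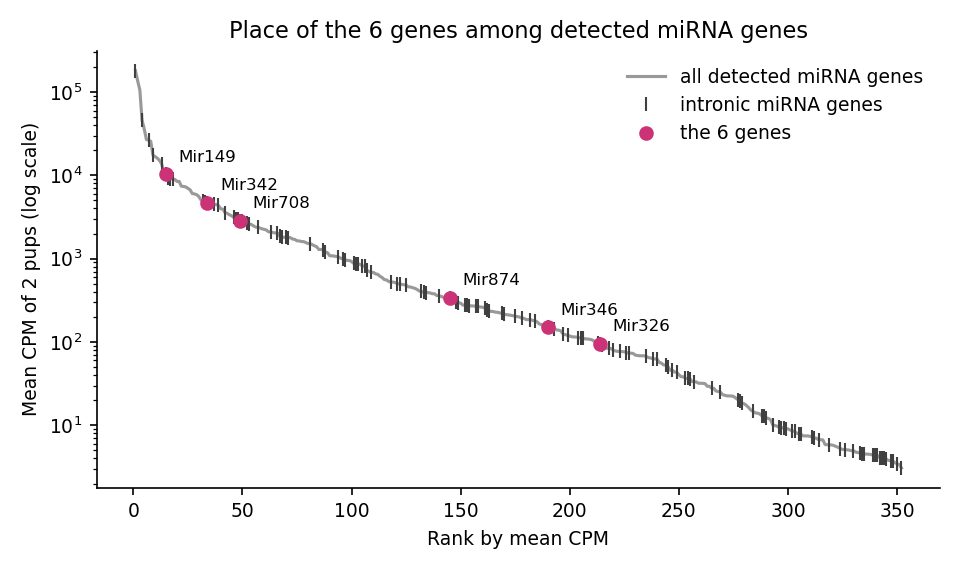
Mean CPM of the 2 pups (log axis) against rank for the 352 detected miRNA genes, with intronic genes as ticks and the 6 genes as points. Mir149, Mir342 and Mir708 lie within the first 50 ranks, at 15, 34 and 49, and the others between 145 and 214.

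Between the pups, 4 of the 6 genes differed in share by an exact two-sided binomial test on the counts, with p-values adjusted by the Benjamini-Hochberg method over all 413 genes tested. Mir149, Mir342 and Mir874 were higher and Mir326 was lower in pup 2. Of all tested genes, 40.9% were called, 25.7% as higher and 15.3% as lower in pup 2. Calls follow depth: of the 218 genes that reached 250 counts in both pups, a bound that all 6 members pass and that was set after their counts were seen, 63.3% were called, 39.4% as higher and 23.9% as lower in pup 2. The members' share is therefore close to that of other genes of such depth. The test sets 1 library against 1 library, has no replicate check and measures counting error alone.

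Mir342 showed the largest difference among the higher set, 1.39-fold higher in pup 2 (log2 ratio 0.47, exact 95% interval 0.44 to 0.50, adjusted p = 1.8e-184 by the exact binomial test). Of the 88 detected genes in its quartile of abundance, 5, Mir342 included, had a ratio at least as far from 0. Mir149 was 1.13-fold higher (log2 ratio 0.18, interval 0.16 to 0.20, adjusted p = 3.1e-59 by the exact test), and 36 of the 88 genes of its quartile lay as far from 0. So Mir149 differed beyond the counting error that the exact test covers, by an amount usual for its abundance. Of the 10 marker lists, 8 were higher in sum in pup 2. Among them were the neuronal (23940 CPM against 20823 CPM in pup 1), oligodendrocyte (2157 and 1789 CPM) and immune lists (539 and 491 CPM). Mir137 alone gave most of the neuronal sum, with 17125.2 CPM in pup 2 and 15026.5 CPM in pup 1. Several lists higher in sum also held genes that were lower in pup 2. Of the 3 measured immune genes, Mir223 was higher in pup 2 (222.1 and 149.2 CPM), while Mir150 (201 and 213 CPM) and Mir155 (116 and 129 CPM) were lower. The part of any of these cells in the Mir342 and Mir149 values was not tested.

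Mir708, by contrast, had a log2 ratio of 0.03 with an exact 95% interval of -0.01 to 0.08 (adjusted p = 0.19, exact test) and was not called. With TMM scaling or DESeq2 size factors its log2 ratio was -0.01, so the data give no direction for it. The interval leaves room for a difference of at most 1.05-fold in counting terms. Its count carries a limit of its own. The mature miR-708-5p has 22 of its 23 bases in common with the precursor of Gm23134, a gene annotated on chromosome 2 with 10 counts in pup 2 and 17 in pup 1, so reads that fit both places may be missing. The longest stretch that any other member shared with another measured precursor was 15 bases. Both strands of the other precursors were searched for these stretches.

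In the lower set, Mir874 was 1.16-fold higher in pup 2 (log2 ratio 0.21, exact 95% interval 0.09 to 0.33, adjusted p = 0.0017 by the exact test). Mir346 had a similar log2 ratio of 0.16, but on fewer counts its interval ran from -0.02 to 0.34 and it was not called (adjusted p = 0.14, exact test). Mir326 was lower in pup 2, at 0.72 of the level of pup 1 (log2 ratio -0.48, exact 95% interval -0.70 to -0.25, adjusted p = 0.00011 by the exact test). Among the 88 genes of its quartile 16, Mir326 included, had ratios as far from 0. Mir122, the hepatocyte marker and the only gene of its list, was likewise at 64.2 CPM in pup 2, against 104 CPM in pup 1; its part in the Mir326 value was not tested. No member differed by 1.5-fold or more. Of all tested genes, 7.75% were called with a difference of that size. With 6 genes such a share can well give 0, so nothing is read from this. Over the 6 genes the median log2 ratio was 0.17, beside 0.04 over all genes tested, and the summed level was 1.17-fold higher in pup 2.

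**Figure D4:**
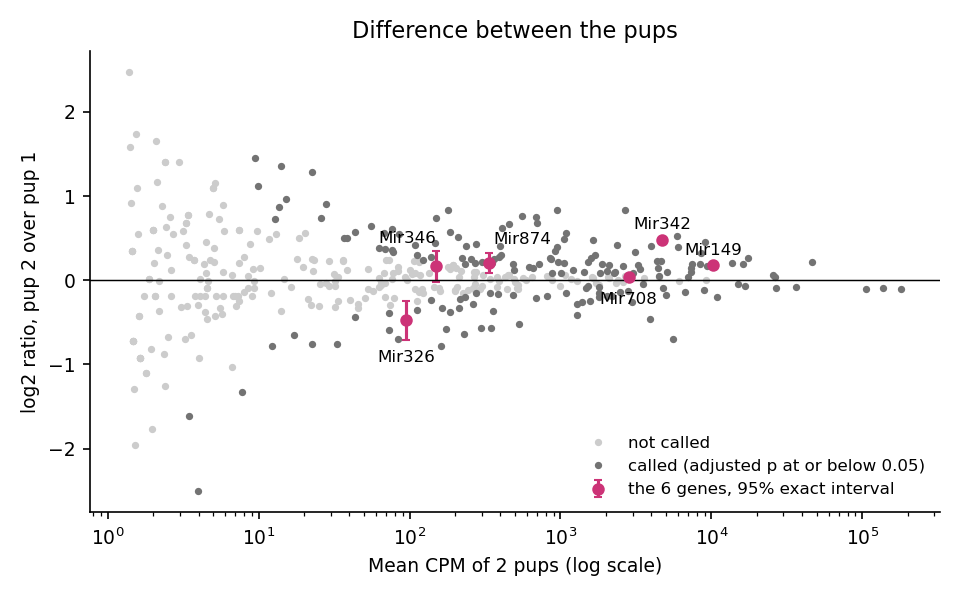
Log2 ratio of pup 2 over pup 1 against mean CPM (log axis) for the 413 tested genes, in dark grey where called and light grey where not, with the 6 genes and their exact 95% intervals on top. Mir342 (0.47) and Mir326 (-0.48) lie furthest from 0 on opposite sides, and Mir708 (0.03) sits on the line.

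The genes that share a seed with a member gave a view of which source of that seed was more abundant. Mir330, which makes miR-330-5p with the seed of miR-326-3p, was at 649 CPM in pup 2, against 583 CPM in pup 1. Mir326 stood at 0.12 of that level in pup 2 and 0.19 in pup 1, so Mir330 was the larger gene for this seed in both libraries. Their ratios between the pups also pointed to opposite sides, with a log2 ratio of 0.15 (exact 95% interval 0.07 to 0.24) for Mir330, against the interval of -0.70 to -0.25 for Mir326. For the seed of miR-708-5p the order was the other way round. Mir28a, in an intron of Lpp, was at 392 CPM in pup 2, against 393 CPM in pup 1, and Mir708 lay 7.32-fold above it in pup 2 and 7.13-fold in pup 1. The seeds of the 3p arms of Mir149 and Mir346 recurred in 5 measured genes, which had at most 6 counts in a pup; Gm27740 and Gm27775 make the same mature sequence, so their reads would fit several places. As arms were not counted apart, these values are for genes, not for the seed-bearing strand.

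A wider list of intronic miRNA genes, drawn up under the heading of neurite, guidance, cytoskeleton and signalling genes, gave the setting for these values. The position of each gene in its host was checked, but not the function of the host. Of 17 genes listed, 16 lay in an intron of the expected host on its strand. All 16 were detected, beside 20.2% of the 654 intronic genes. Nothing is read from this, because the list was chosen with earlier results of these data known. Their mean levels ran between 36.5 CPM (Mir218-1, in the guidance gene Slit2) and 13709 CPM (Mir26b, in Ctdsp1). The 6 genes fell inside this range, although only Mir26b stood above Mir149. After Mir26b the most abundant were Mir598 of Xkr6, with 4699 CPM in pup 2 against 4004 CPM in pup 1, and Mir744 of the kinase gene Map2k4, with 3599 and 3541 CPM. Between the pups 7 of the 16 were called higher and 1, Mir488 of the astrotactin gene Astn1, lower in pup 2. Over all 413 tested genes these shares were 25.7% and 15.3%. In the 218 genes that reached 250 counts in both pups, they were 39.4% and 23.9%. Of the list, only Mir218-1 fell short of that depth. In either direction 50% of the list were called, beside 63.3% of these deeper genes. The median log2 ratio of the list was 0.10, beside 0.04 over all tested genes. None of the 16 reached 1.5-fold, beside 7.75% of all tested genes called with a difference of that size.

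For each member, the gene most like it was taken as the detected non-member with the smallest distance in log2(CPM + 1) over the 2 libraries. For Mir149 it was Mir99b (9821 CPM in pup 2, 8769 CPM in pup 1; distance 0.20), and for Mir342 Mir21a (5003 and 4271 CPM; 0.17). For Mir708 it was Mir151 of the focal adhesion kinase gene Ptk2, at 2737 CPM in pup 2 against 2651 CPM in pup 1 (0.10). With both strands of each precursor searched, Mir151 is also the precursor with the longest stretch in common with mature miR-708-3p, 15 bases. That stretch may therefore lie on the strand opposite to Mir151. For the lower set the nearest genes were Mir92-1 to Mir874 (0.09), Mir146 to Mir346 (0.18) and Mir122 to Mir326 (0.32). With 2 libraries, likeness means little more than a similar level and a similar difference between the pups.

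Several of the precursors were rich in G and C beside the detected genes, whose median GC content was 50.2%. Mir874 had 68.4% GC, Mir149 68.2%, Mir346 65.3% and Mir326 60.0%, and between 84.9% and 96.6% of detected precursors had no higher GC content than these. Mir342 (51.5%) and Mir708 (50.5%) lay near the median. The GC-rich members were the most abundant, Mir149, and the 3 least abundant, while Mir342 and Mir708 lay between them in level. GC content can move the recovery of small RNAs in library preparation, which was not tested here.

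**Figure D5:**
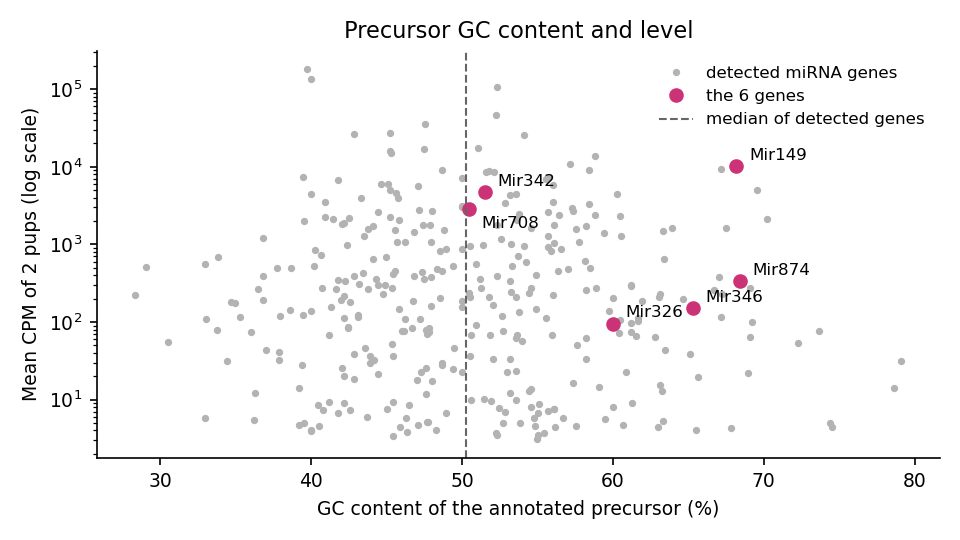
GC content of the annotated precursor against mean CPM (log axis) for the 352 detected genes, with the 6 genes as coloured points and the median GC content as a dashed line. Mir149, Mir874, Mir346 and Mir326 lie at 60.0% or above, right of the median of 50.2%, and Mir342 and Mir708 beside it.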

How the data were processed

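The authors deposited a table of raw read counts per miRNA gene for each pup, with columns for either strand, the gene's own strand and the opposite strand. The deposited text names mm10 as the build and GENCODE M4 as the gene annotation, with aligner and counter not given in the sources used here. Classes that name no gene stayed out of totals and tests: unmapped (11.0% of reads in pup 2, 10.8% in pup 1), multimapping (35.4% and 35.7%), reads outside features and ambiguous reads (0). Pup numbers are those of the labels.

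Own-strand counts were scaled to CPM. Symbols, introns and hosts came from GENCODE M21 (same build), matched by identifier for 1894 of 1973 genes; of the host transcripts spanning a precursor, the principal isoform was used. RefSeq sequences matched 6 of 6 symbols, 5 with mature entries. Detection required 10 counts in each pup. Each gene with 10 or more counts over both pups was compared between them by an exact binomial test (two-sided, with the library totals fixing the expected share), called at an adjusted p of 0.05 or below; ratios had 0.5 added to each count. The test was run on simulated counts with known changes and counting error alone. Such counts check the calculation and cannot show how the test fares with spread between pups. Levels of neighbours were compared with SDs of log2(CPM + 1) pooled within quartiles of abundance, taking the larger SD. Members, lists and tests were chosen with earlier results of these data known. Genes named were the members, the nearest gene to each, genes sharing a seed, and the 3 most abundant of the wider list, besides marker genes. Mir218-1, Mir488, Gm23134, Mir6394 and Mir3102 were named after their values were seen. The same holds, within the marker lists, for Mir126a, Mir137, Mir206, Mir223, Mir150 and Mir155. Alternatives were TMM (edgeR 4.0.16) and DESeq2 1.42.0 scaling, other minimums, pseudocounts and totals, either-strand counts and leaving out each pup. Software was RNAfold 2.7.2, scipy 1.17.1, Python 3.11.15, R 4.3.3, matplotlib 3.10.9, numpy 2.4.6 and pandas 2.3.3.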

Additional observations from a re-analysis of the deposited data

Results flagged for a closer look

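Opposite-strand counts, which enter no level given above, were found at 1 of the 6 genes. At Mir708 they were 4 in pup 2 and 5 in pup 1, each above the 3 counts that a count of 0 allows. They made up 0.0461% of the counts on either strand at this gene. Scaled to either-strand totals, Mir708 stood at 2775 CPM, against 2834 CPM on its own strand. The table as a whole therefore held a larger opposite-strand share than this gene. The other 5 genes had 0 opposite-strand counts in both pups.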

How the results depend on the processing

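No member's call between the pups changed with TMM scaling, DESeq2 size factors or either-strand counts. Adding 1 to each count entered the log2 ratio but not the test, so it could not change a call. The sign changed for Mir708 alone, which was not called, with a log2 ratio of 0.03 as reported and -0.01 with either scaling. The scalings moved all ratios by -0.04. Over all genes, 106 calls were higher and 63 lower in pup 2 as reported, against 93 and 78 with either scaling. The median log2 ratio of the detected genes was 0.043 as reported and 0.002 with either scaling. The lean of the calls towards pup 2 thus depends in part on the scaling. Of 28 recomputed summary values, 25 stayed within the spread or within 1.5 times the count, and 3 did not. Requiring a 1.5-fold difference as well as the adjusted p left 0 of the 4 member calls and 32 of the 169 calls over all genes, by construction. Leaving the most abundant gene out of the totals gave a summed level of 22391 CPM, by construction of the smaller total. Leaving out 1 pup gave summed levels of 16909 to 19804 CPM and moves a mean of 2 by less than its SD by construction. All 5 steps between neighbours held with TMM scaling, DESeq2 size factors, either-strand counts, a pseudocount of 5 CPM and CPM per kilobase, the alternatives run for them. Scaling moves all genes of a library alike, and among the members only Mir708 had opposite-strand counts. The scalings and either-strand counts could therefore move the limit but hardly the steps. No paired analysis was possible because the data hold 1 group. With 2 littermates, differences between the pups cannot be told apart from differences between library preparations, and depth limits Mir346 and Mir326 most.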

Other observations

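The hosts held little other miRNA output. Of all measured miRNA genes, 1 further gene lay inside any of the 6 hosts on either strand, Mir6394 in Tenm4, with 0 counts in both pups, which allows up to 0.820 CPM in pup 2 and 0.933 CPM in pup 1. The nearest miRNA gene to Mir326, Mir3102 in Arhgef17, lies 1330 kb away and had 191 counts in pup 2 and 113 in pup 1.

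Predicted folding energies per base of the precursors were -0.56 kcal/mol for Mir149, -0.53 for Mir326, -0.51 for Mir346, -0.475 for Mir874, -0.473 for Mir342 and -0.41 for Mir708, beside a median of -0.43 over the 352 detected genes. Mir708 was the only one of the 6 with a weaker predicted fold per base than that median.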
